A study of Mus musculus with 3 samples.

Results

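Srcin1, Csk, Pag1 and the Src-family kinases Lyn, Fyn, Src, Fgr, Yes1 and Lck were read from 3 one-colour microarrays of mast cells that lack Pafah2. The genes were taken by the gene name printed for each non-control spot, which gave 10 spots for 9 of the 31069 genes on the array, and each member probe was printed once. The cells were bone-marrow-derived mast cells (BMMCs), grown from marrow progenitors of 12-week-old male Pafah2-deficient mice on the C57BL/6 background. Pafah2 is a phospholipase that frees oxidised fatty acids from membrane lipids, and no cells that carry Pafah2 were included. Of the 3 samples, 1 received DMSO as vehicle and 1 received 17,18-EpETE and 19,20-EpDPE, epoxides of omega-3 fatty acids, mixed in a ratio of 2 to 3 at 300 nM. The remaining sample received GW9662 at 0.5 µM, which blocks PPAR gamma, a nuclear receptor for fatty acids, and both treatments lasted 12 h. There was 1 array per group, and the labels do not say whether the samples came from separate mice, so no test was possible and no error between cultures could be estimated. Arrays are called vehicle, epoxide and GW9662 arrays after the samples their scanner files belong to. The deposited value table pairs the treated samples and their signals the other way round, so each statement about 1 treated array belongs to the other treatment if that table is right.

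Src-family kinases sit at the inner face of the plasma membrane and phosphorylate the tyrosines of immune receptors, among them the IgE receptor of mast cells, when antigen clusters these receptors. Csk holds the kinases inactive by phosphorylating a tyrosine near their C-terminus, Pag1 (also called Cbp) is a membrane adaptor that brings Csk to them, and Srcin1 (p140Cap or SNIP) is a scaffold that binds Csk and Src and lowers Src activity. Lyn and Fyn are the members best known downstream of the IgE receptor. Srcin1 is the gene that the study put forward as a target of PPAR gamma, so the comparison of interest for it is each treated array against vehicle.

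Each gene was read by probes 60 bases long, and the results on Srcin1 turn on 2 probes at different places in the same transcript. The probe that was bright on 1 array (A_55_P2081123) lies at chr11:97370654-97370713 on the minus strand of mm9 and starts at base 6905 of the transcript, while the other (A_52_P25420) starts at base 3339 and has no mm9 position in the files. The first sequence is a window of 30 bases from the former probe, with the polyadenylation hexamer AATAAA in capitals, and the second is the whole of the latter. Both run 5′ to 3′ on the transcript strand.
Srcin1, bright probe: tgttggggctttAATAAAacttgtttcttt
Srcin1, other probe: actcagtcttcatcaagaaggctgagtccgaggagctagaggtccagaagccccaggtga
AATAAA or ATTAAA stood on the transcript strand of 2 of the 10 member probes, the bright Srcin1 probe and the Lck probe, and in 16.7% of the 39429 probes of the array. On either strand, 5 of 10 member probes and 21.8% of all probes held 1 of these hexamers. No other probe on the array shared more than 14 consecutive bases with the bright Srcin1 probe, or more than 16 with the other.

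The next sequences are shown because ratios between these arrays varied with the base composition of the probe, as given with the Csk values. They are the first 30 bases of the 4 member probes that were measured on all arrays, 5′ to 3′, with G and C in capitals.
Csk: CCGtGtGtttattttttattatttttCaaC
Lyn: CtGCattGtCtaCtttatttCatGGaaaGG
Fyn: aGCGaaCtGtGattCGttCttGaaaCttaG
Lck: aatCttatGtCtCtGtGtGttCtGtCCtGG
Over the full 60 bases the GC content was 31.7% in the Csk probe, 35.0% in the Lyn probe, 41.7% in the Fyn probe and 45.0% in the Lck probe. Family members are similar in their kinase domains, so probes for them could in principle bind each other's transcripts. The longest stretch that any pair of the 10 member probes shared was 9 bases. This compares probes with probes only, and whether a probe matches the transcript of another member was not tested.

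Levels are log2 of a spot's processed intensity divided by the array's 75th percentile. A spot is measured where the scanner software called it well above background, and the dimmest such level was -4.84 with vehicle, -5.57 on the epoxide array and -5.03 on the GW9662 array. Of the 10 member spots, 4 were measured on all arrays (Csk, Lyn, Fyn and Lck), 1 with vehicle only (the bright Srcin1 probe) and 5 on no array. In all, 13 of 30 member readings were measured, in 14 the software had put a surrogate in place of a signal too low to use, and none carried an outlier flag. Whole arrays had 52.3% to 54.6% of their 43020 non-control spots measured. From 219 probes with at least 5 copies, the technical SD of a log2 ratio came to 0.0820 between the epoxide and vehicle arrays, 0.0807 between the GW9662 and vehicle arrays and 0.0776 between the treated arrays. This SD covers differences between spots only, and levels of different probes cannot be set against each other as amounts of RNA.

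**Figure D1:**
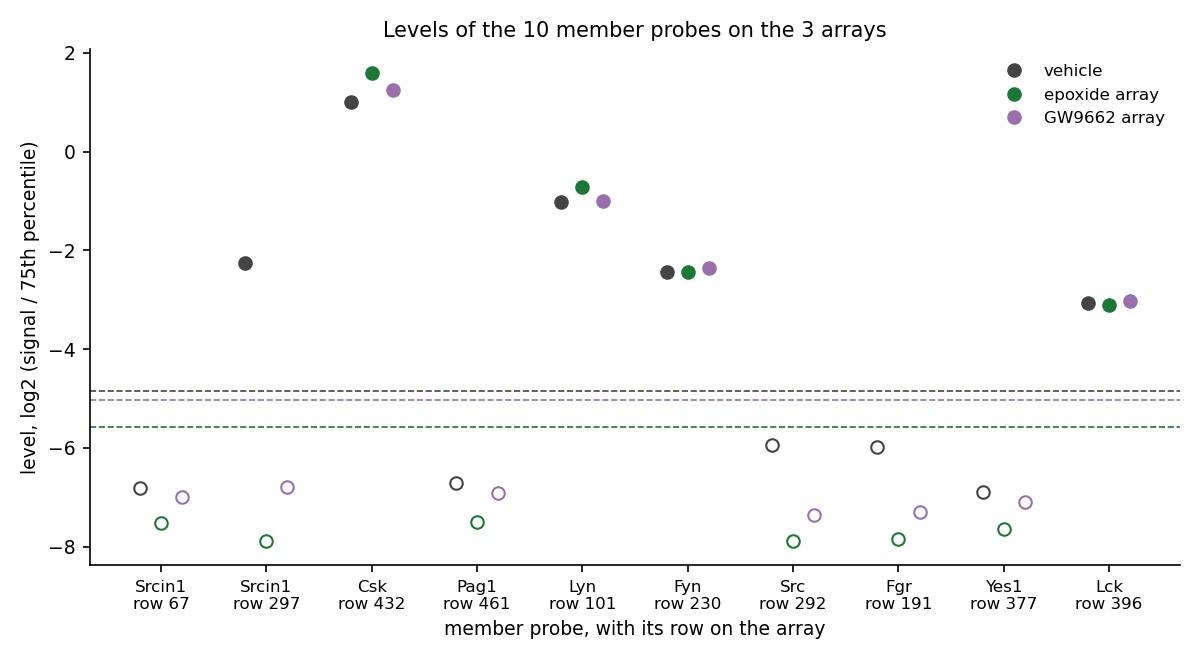
Level of each of the 10 member probes (log2 of processed intensity over the 75th percentile of the array) on the 3 arrays, with the row of its spot. Filled points are well above background, open points are not, and dashed lines mark the dimmest measured level of each array. The bright Srcin1 probe is filled with vehicle only, while Csk, Lyn, Fyn and Lck are filled on all arrays.

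Srcin1 was seen with vehicle and not on either treated array, by 1 of its probes. The bright probe read -2.26 with vehicle, -7.89 on the epoxide array and -6.80 on the GW9662 array. Its raw mean pixel intensities, before any background step, were 571, 91.8 and 108 in the same order. The vehicle array thus stands alone, and neither treated array was well above background, so that no order between them was read. The epoxide reading was a surrogate, whereas the GW9662 reading was marked as positive and significant against background by the scanner software and was not a surrogate. A bound on the difference was taken by setting a dim array to the dimmest measured level on it, or to the probe's own level if that was higher. By this bound Srcin1 was at least 9.86-fold lower with epoxides than with vehicle (log2 ratio of -3.30) and at least 6.78-fold lower with GW9662 (-2.76). These bounds depend on the background correction, and with normexp they were smaller, at log2 ratios of -2.48 and -2.15. An exchange of the treated arrays leaves Srcin1 lower on both.

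The other Srcin1 probe did not show this difference. It had levels of -6.81 with vehicle, -7.52 on the epoxide array and -7.00 on the GW9662 array, was not well above background on any of the 3, and carried a surrogate on each. Nothing in the files tests why the probes differ.

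Some spots around the bright Srcin1 probe shared its pattern. That probe lay in row 297 and column 38, among the rows in which copies of the same probe disagreed most, as described below. The square of 5 by 5 around it held 23 other non-control spots. Their median difference was 0.45 for vehicle minus epoxides and 0.20 for vehicle minus GW9662. Of these spots, 4 (17.4%) were likewise measured with vehicle only, against 2.45% of spots in those rows and 1.14% on the whole array. In column 38 these were AK046725 in row 295, at -1.58 with vehicle, -7.10 on the epoxide array and -5.22 on the GW9662 array, and Ntn1 (a netrin, a guidance cue) in row 298, at -4.26, -7.30 and -6.02. The other two were 6030469F06Rik in row 296 and column 37, at -1.49, -6.12 and -5.88, and Igfals (a binding protein subunit of insulin-like growth factors) in row 299 and column 38, at -4.53, -7.89 and -6.18.

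The Srcin1 spot itself was uneven on the vehicle array. The SD of its pixels was 0.215 of their mean, where the median was 0.138 among 1726 spots of like signal (0.8 to 1.25 times), 6.32% of which were at or above it. The software set aside 9 of its pixels as too high, a number reached by 1.45% of the spots of like signal. It also did not mark the spot as found there, as in 1.97% of the spots of like signal, although it did on both treated arrays. The median of the pixels was 547 with vehicle, 84.0 on the epoxide array and 111 on the GW9662 array. Whether the vehicle signal came from Srcin1 RNA was not tested.

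**Figure D2:**
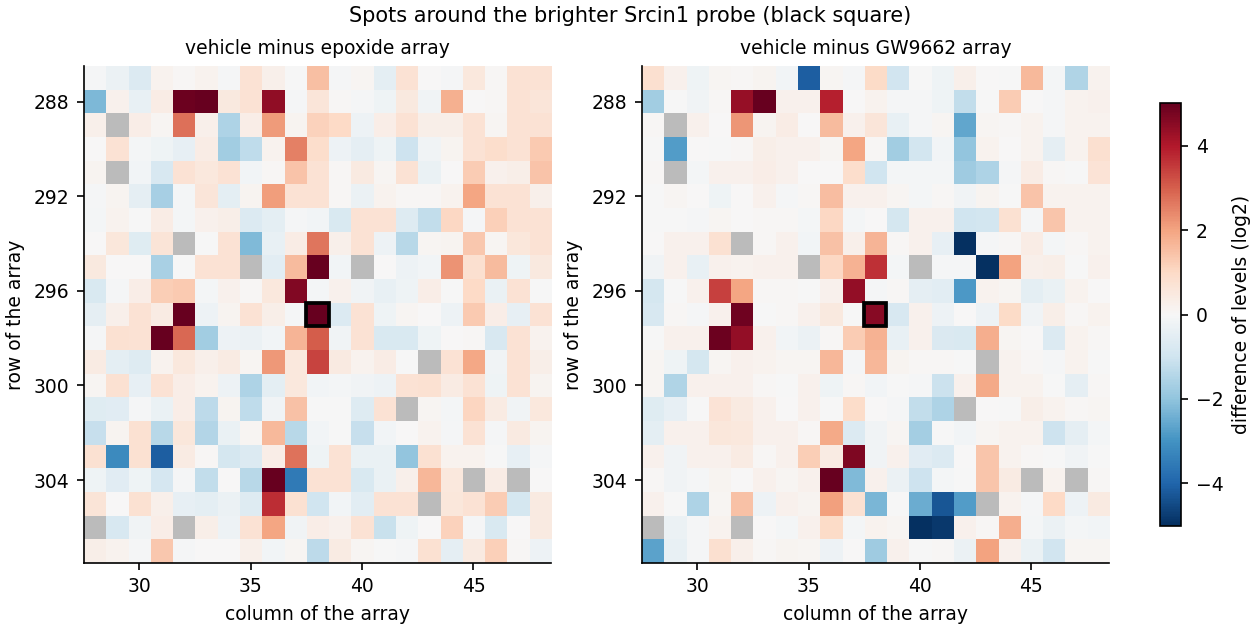
Difference of levels (log2) between vehicle and each treated array for the spots around the bright Srcin1 probe, which is the black square at row 297 and column 38. Red spots were brighter with vehicle, blue spots were brighter on the treated array, and grey marks positions with no plotted spot; the scale ends at 5 in either direction. Srcin1 lies in a short column of red spots that is broken in row 296.

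Genes seen on 1 array alone were concentrated in the same part of the arrays as Srcin1. Rows 181 to 400 of 532 are the rows in which copies of the same probe disagreed most, with at least 2% of copies at 2-fold or more from their probe's median, and they hold 41.9% of the spots. By the bound, 196 genes (0.631% of all) were at least 2-fold brighter with vehicle and measured there only, and 191 of them (97.4%) were read in those rows, against 42.6% of all genes. Srcin1 was the 44th of the 388 genes measured with vehicle only when these were ranked by level with vehicle. Of the 138 genes seen in this way on the GW9662 array alone, 132 (95.7%) were in these rows, and of the 87 on the epoxide array, 60 (69.0%) were. At the level of probes, 219 probes in these rows showed the vehicle-only pattern at 2-fold or more, and 42 of them had another probe for the same gene outside the rows. That other probe (the brightest, where there were several) was measured with vehicle only in 0 cases, on all arrays in 11, on none in 29, Srcin1 among them, and on some other set of arrays in 2. The part of spot position in the Srcin1 difference was not tested. Without these rows no Srcin1 probe was measured on any array, so no ratio could be given.

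**Figure D3:**
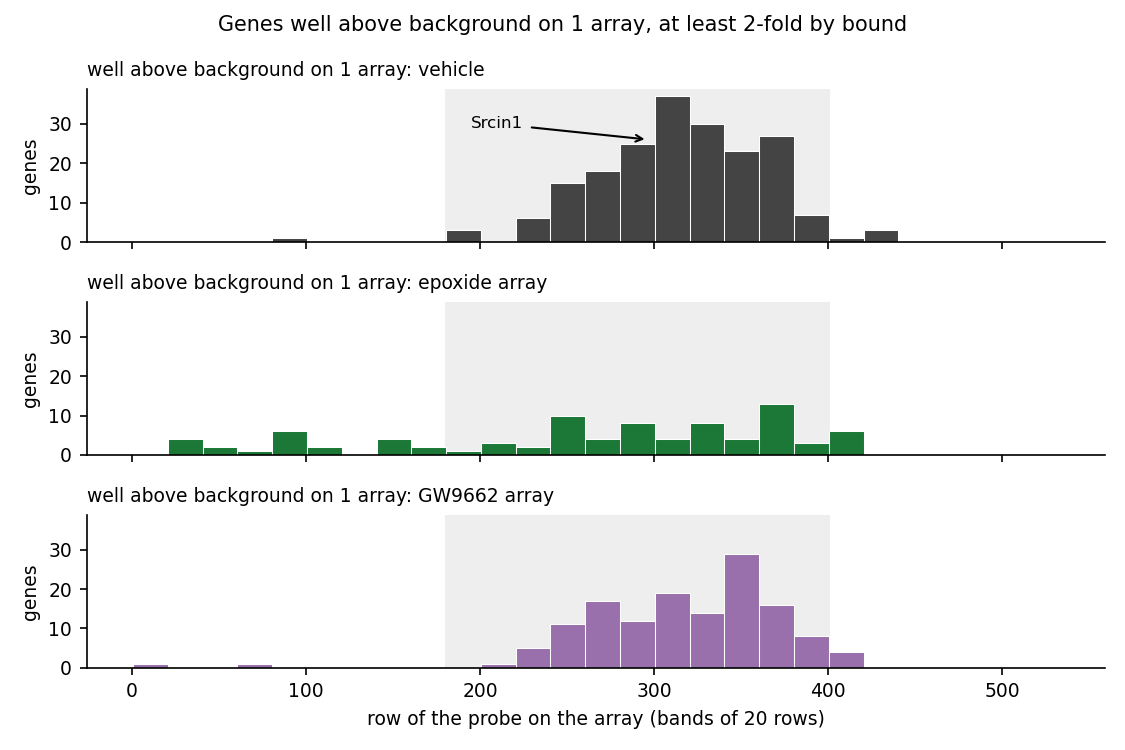
Number of genes that were well above background on 1 array only and at least 2-fold brighter there by the bound, by the row of their probe in bands of 20 rows. The shaded rows, 181 to 400, are those in which copies of a probe disagreed; they hold 191 of the 196 genes seen with vehicle only, with Srcin1 in row 297.

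Csk was higher on the epoxide array than with vehicle, and the GW9662 array lay between. Its probe (chr9:57474734-57474793, minus strand of mm9) had levels of 1.0 with vehicle, 1.60 on the epoxide array and 1.24 on the GW9662 array. The log2 ratios were 0.60 for epoxides over vehicle (1.51-fold), 0.24 for the GW9662 array over vehicle (1.18-fold) and 0.36 for epoxides over GW9662 (1.28-fold), each at least 2.99 technical SDs from 0. Csk was the only member of the 4 measured on all arrays whose levels differed by more than the technical SD between each pair of arrays. The spot lay in row 432, outside the rows in which copies disagreed. None of its 24 neighbours was 4-fold brighter with vehicle than on both treated arrays, against 0.040% of all spots outside those rows. That count looks in the direction opposite to Csk, so it cannot show whether neighbours were brighter on the epoxide array. The median difference of the neighbours was 0.07 for vehicle minus epoxides and -0.01 for vehicle minus GW9662.

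Probes as rich in A and T as the Csk probe also tended to be brighter on the epoxide array. The 47 other measured genes whose probes had a GC content within 1 percentage point of that of Csk had a median log2 ratio of 0.13 for epoxides over vehicle, with quartiles of -0.06 and 0.27. With a trend in GC content and signal removed from each array, the Csk ratio was 0.33 for epoxides over vehicle, 0.18 for the GW9662 array over vehicle and 0.16 for epoxides over GW9662. Csk was thus above vehicle on both treated arrays in this form too, by less. Among 15698 genes measured on all arrays, 19 had a pair of ratios to vehicle within 0.0813 of that of Csk (the mean technical SD of both ratios, as a distance on the log2 scale), and the nearest were Gm41542 (distance of 0.0038) and Ppp1r2 (0.0239), an inhibitor of protein phosphatase 1.

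Pag1, the adaptor that brings Csk to the membrane, was not measured on any array. Its only probe (chr3:9692525-9692584, minus strand of mm9) had levels of -6.71 with vehicle, -7.50 on the epoxide array and -6.92 on the GW9662 array, none well above background and all surrogates. The order of these values follows the lowest levels that the arrays can give (-7.18, -7.90 and -7.37) and is not an order of Pag1 RNA.

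Lyn, the kinase that phosphorylates the IgE receptor first, was slightly higher on the epoxide array. Its probe (chr4:3718682-3718741, plus strand of mm9) had levels of -1.02 with vehicle, -0.73 on the epoxide array and -1.0 on the GW9662 array. The ratios were 0.30 for epoxides over vehicle (1.23-fold), 0.03 for the GW9662 array over vehicle and 0.27 for epoxides over GW9662. Vehicle and the GW9662 array did not differ beyond the technical SD. Of 3718 other genes with probes of like GC content, the median for epoxides over vehicle was 0.11, with an upper quartile of 0.21, and with the trend removed the Lyn ratio was 0.18. Lyn was read in row 101, outside the rows in which copies disagreed.

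Fyn, which acts beside Lyn and leads to the adaptor Gab2, was at nearly the same level on all arrays. Its probe (chr10:39284572-39284631, plus strand of mm9) had levels of -2.45 with vehicle, -2.43 on the epoxide array and -2.35 on the GW9662 array. The ratio was 0.01 for epoxides over vehicle, 0.09 for the GW9662 array over vehicle and -0.08 for epoxides over GW9662, at most 1.17 technical SDs from 0. The sign of the first was not stable, with values from -0.03 with normexp background correction to 0.15 with quantile normalization. Fyn was read in row 230, within the rows in which copies disagreed, and its level does not show the single-array pattern of Srcin1.

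Lck, best known as the kinase of T-cell receptors, was dim but measured on all arrays. Its probe (chr4:129225614-129225673, minus strand of mm9; row 396) had levels of -3.06 with vehicle, -3.10 on the epoxide array and -3.03 on the GW9662 array. No pair of these differed beyond the technical SD, although with the trend removed the ratio for epoxides over vehicle was 0.22. Of 5 T-cell markers on the array, Cd3e and Cd4 were measured and Cd3d, Cd3g and Cd8a were on no array, and their summed level relative to the 75th percentile was 2.40, 1.46 and 2.09 in the same order. In bulk RNA, fewer cells of a type and less RNA per cell cannot be told apart.

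Src itself, Fgr and Yes1 were not measured on any array. Src, the founding member and the kinase whose activity Srcin1 lowers, had levels of -5.93 with vehicle, -7.89 on the epoxide array and -7.36 on the GW9662 array. Fgr, a kinase of myeloid cells (chr4:132557522-132557581, plus strand of mm9), had -5.98, -7.84 and -7.31 in the same order. For both, the vehicle spot was the highest and lay below the dimmest level called well above background there, and both were in the rows in which copies disagreed (292 and 191). Yes1, a broadly expressed kinase close to Src (chr5:32988496-32988555, plus strand of mm9), had -6.89, -7.65 and -7.10, with a surrogate on each array. For these 3 genes only an upper bound holds, and a difference was not detectable.

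The Src probe is compared here with that for Blk, a B-cell kinase of the same family, because neither was well above background on any array and the probes line up from end to end. They are aligned without gaps, 5′ to 3′, with identical bases in capitals.
Src: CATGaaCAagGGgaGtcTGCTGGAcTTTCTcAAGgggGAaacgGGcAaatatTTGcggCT
Blk: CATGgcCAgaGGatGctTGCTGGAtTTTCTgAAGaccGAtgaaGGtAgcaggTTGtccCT
The probes matched at 34 of 60 positions (56.7%), with no shared run longer than 7 bases. The more distant kinases Frk, Ptk6 and Srms, like Blk, were not measured on any array.

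None of the 4 members measured on both arrays of a comparison was 2-fold apart in any of the 3 comparisons. Among all measured genes, 2.28% were 2-fold apart in epoxides over vehicle, 0.823% in GW9662 over vehicle and 1.16% in epoxides over GW9662. At 1.5-fold, Csk was past the threshold in epoxides over vehicle, where 1.34% of all measured genes were higher by as much and 10.2% were apart in either direction, and no member was in GW9662 over vehicle (1.84% of all genes in either direction) or epoxides over GW9662 (5.73%). With 4 genes measured, these counts are too small to be read against the shares of all genes. Srcin1 enters none of them, since it was measured with vehicle only, as were 1.25% of all genes.

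**Figure D4:**
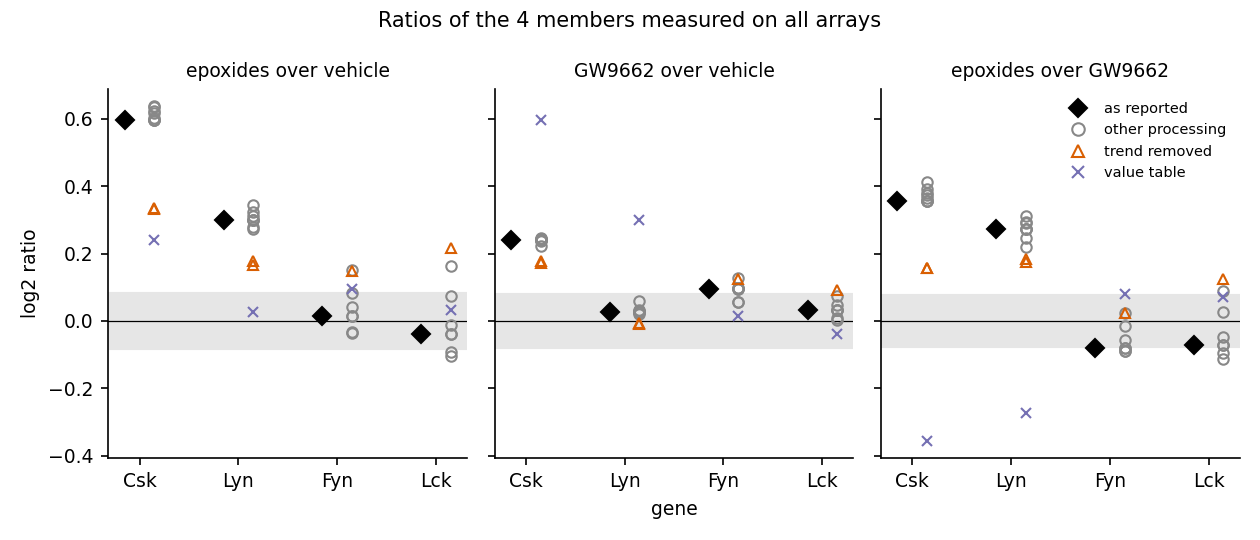
Log2 ratios of Csk, Lyn, Fyn and Lck in the 3 comparisons. Black diamonds are the values as reported, and the grey band is 1 technical SD on either side of 0. Other symbols are the same ratio under another processing or, for the value table, with the treated arrays exchanged. For epoxides over vehicle Csk ranges from 0.33 with the trend removed to 0.64 with normexp background correction, and is 0.24 with the value table, which puts the other treated array in its place. Keeping flagged spots, averaging detected probes or leaving out rows 181 to 400 cannot change Csk, which has 1 unflagged spot outside those rows.

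Genes around the kinases were taken by list. Of 17 further inhibitors and docking proteins of Src-family kinases, 13 were measured, and their median log2 ratio was -0.16 for epoxides over vehicle (4 positive, 9 negative) and -0.07 for GW9662 over vehicle (5 positive, 8 negative), where the medians of all genes were -0.07 and -0.02. The gene farthest from 0 was Pxn (paxillin, a focal adhesion scaffold), a dim gene with levels of -3.60 with vehicle, -4.37 on the epoxide array and -4.39 on the GW9662 array. Pxn was read in row 231, within the rows in which copies disagreed, by a probe with a GC content of 55.0%, and its ratio for epoxides over vehicle was -0.77, or -0.23 with the trend removed. For GW9662 over vehicle the Pxn ratio was -0.79, or -0.65 with the trend removed. Matk, a kinase related to Csk with the same substrate site, had levels of 0.17, -0.36 and -0.14, with ratios of -0.53 and -0.30 to vehicle, opposite in sign to those of Csk. The Matk probe had a GC content of 55.0%, at which 1291 measured genes had a median of -0.34 for epoxides over vehicle, and with the trend removed its ratio there was -0.22. With the trend removed the median of the list was 0.01 (7 positive, 6 negative), so the list has no settled direction. All 7 phosphatases that can act on the regulatory tyrosine were measured, with medians of 0.10 and 0.04, and the farthest from 0 for epoxides over vehicle were Ptpre at 0.26 and Ptprj at 0.24. With the trend removed these were 0.05 and 0.09, and with the mean of its detected probes Ptprj turned to -0.09. No gene of these 2 lists was 2-fold apart, where 2.28% of all measured genes were for epoxides over vehicle and 0.823% for GW9662 over vehicle.

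Among 12 partners of Srcin1 and cytoskeletal substrates of Src, 10 were measured, with medians of -0.16 for epoxides over vehicle (2 positive, 8 negative) and -0.0038 for GW9662 over vehicle (5 positive, 5 negative). With the trend removed the former was -0.02 (5 positive, 5 negative). Efs, an adaptor of the p130Cas family to which Src binds, was 2-fold apart in both, as were 2.28% and 0.823% of all measured genes. Its levels were -1.78 with vehicle, -4.83 on the epoxide array and -4.03 on the GW9662 array. The log2 ratios of Efs were -3.04 and -2.25, from a single probe in row 317, within the rows in which copies disagreed. Bcar1, which is p130Cas and binds Srcin1, was on no array, and neither was Sorbs3 (vinexin). Snap25, a partner of Srcin1 in vesicle fusion, was bright, with levels of 3.08, 2.66 and 3.02. Ptk2 (focal adhesion kinase) had a ratio of -0.58 for GW9662 over vehicle, at levels of -3.54 with vehicle and -4.13 on the GW9662 array. The ratio was -0.40 with normexp. Ptk2 was read in row 231, within the rows in which copies disagreed, and its other probes were not well above background on any array.

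The IgE receptor and the proteins that Lyn and Fyn phosphorylate first were all measured, 19 of 19. Their median was -0.07 for epoxides over vehicle (7 positive, 12 negative) and -0.02 for GW9662 over vehicle (9 positive, 10 negative), at the medians of all genes. None was 1.5-fold apart, where 10.2% of all measured genes were for epoxides over vehicle and 1.84% for GW9662 over vehicle. With 19 genes, this count is too small to be read against those shares. The farthest from 0 for epoxides over vehicle were the receptor chains Fcer1g at -0.38 and Fcer1a at -0.34. With the trend removed these were -0.03 and -0.24, and the list median was -0.02 (9 positive, 10 negative). With quantile normalization they were -0.13 and -0.04, and the list median was 0.02 (10 positive, 9 negative). For GW9662 over vehicle the farthest was Lcp2 (SLP-76, an adaptor of phospholipase C gamma) at 0.38, read in row 357.

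**Figure D5:**
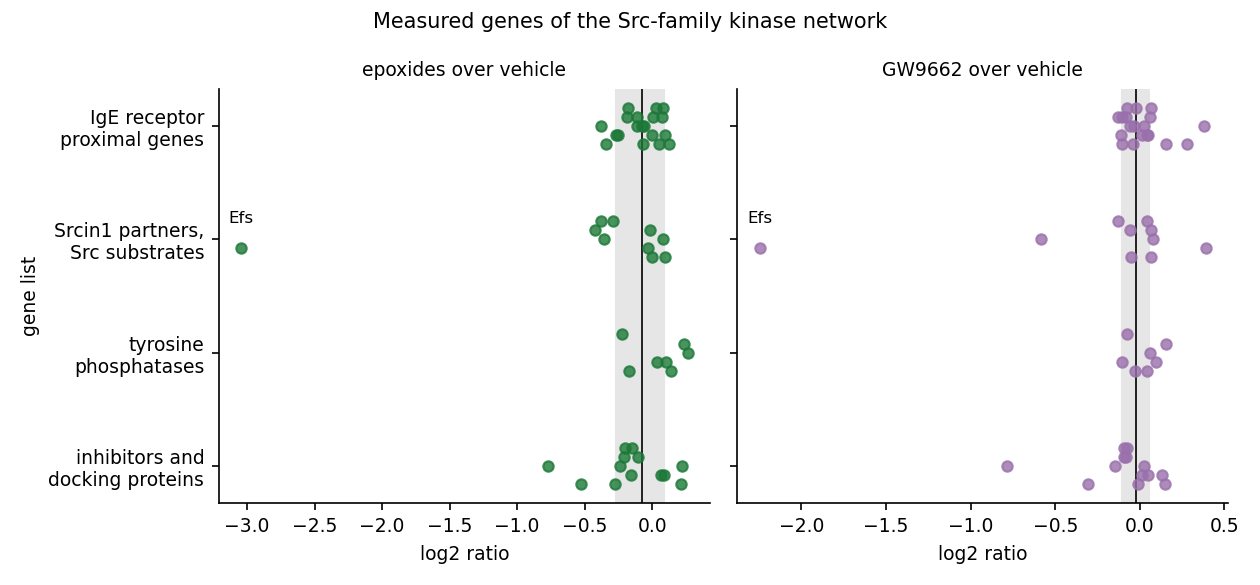
Log2 ratio to vehicle of each measured gene in 4 lists around the Src-family kinases, for the epoxide and GW9662 arrays. The black line is the median of all measured genes and the grey band its quartiles. Efs, in row 317, lies far below the others in both comparisons, at -3.04 and -2.25.

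Pparg, the receptor that GW9662 blocks, was near the lower end of what was measured, at -3.75 with vehicle, -4.39 on the epoxide array and -3.94 on the GW9662 array. The ratio for epoxides over vehicle was -0.64, and -0.30 with the trend removed. Its probe has 10 copies on the array, from -4.10 to -3.47 with vehicle. On the GW9662 array the copy in row 360 stood at -2.74, apart from the next highest at -3.70, and carried an outlier flag. Pafah2 had levels of 0.03, -0.08 and 0.07. The deleted segment of the gene is not given in the sources used here, so whether this probe lies in it, and hence whether it checks the deletion, is unknown. All 10 mast cell markers were measured on all arrays, with summed levels of 645, 496 and 576 relative to the 75th percentile. Such sums, here and for the neuronal markers, weigh the brightest probes most. The median log2 ratio of the mast cell markers was -0.15 for epoxides over vehicle and -0.07 for GW9662 over vehicle, where the medians of all genes were -0.07 and -0.02. Of the neuronal markers, which matter because Srcin1 is best known from neurons, 4 of 7 were measured on each array, with summed levels of 10.9, 8.87 and 10.6, while Map2, Rbfox3 and Nefl were on none. Markers of fibroblasts were on no array (0 of 5), and those of B cells were on none except Cd79a on the GW9662 array. Cd79a was read in row 312, within the rows in which copies disagreed, at -6.00 with vehicle, -5.66 on the epoxide array and -1.77 on the GW9662 array. Basophil markers were measured on every array (3 of 3), macrophage markers in 4 of 6 cases on each, and neutrophil markers in 3 of 8 with vehicle and 4 of 8 on each treated array. The neutrophil marker measured on the treated arrays only was Mpo, in row 279, also within the rows in which copies disagreed. Its levels were -5.48 with vehicle, -5.42 on the epoxide array and -2.43 on the GW9662 array.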

How the data were processed

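Cy3-labelled RNA (200 ng per labelling, per the labels) was hybridised to 3 Agilent arrays on 1 slide and scanned, with signals extracted by Agilent Feature Extraction 11.5.1.1, per the submitters' processing notes. Per the file headers, the processed signal is an intensity, background-subtracted and detrended within the array, with surrogates for low signals and no scaling between arrays; raw pixel mean, median, SD and local background are intensities too. The deposited value table holds a ratio, which equals the processed intensity over 1 constant per array, with column medians of 0.0475 (vehicle), 0.0455 (epoxides) and 0.0369 (GW9662); its scale and centring are known from this match, its treated columns are exchanged relative to the scanner files, and which assignment is right is unknown.

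Each array's log2 signal was reduced by log2 of its 75th percentile over non-control spots. Spots flagged as non-uniform or population outliers (221 to 251 per array) were left out and copies averaged. Genes were read by the probe with the highest mean level and counted as measured when well above background on both arrays; 28330 of 39429 probes were named through RefSeq symbols, and coordinates are those of the files (mm9), so exon and UTR positions were not assigned. Pairs of ratios were compared with those of Csk by Euclidean distance; Srcin1 was left out of this step because it was measured on 1 array only. Named list genes are the 2 measured ones farthest from 0 in a comparison, plus Pparg and Pafah2, except that some genes named by this rule are not reported here; list genes beyond these, and the neighbours of Srcin1, were named after their values were seen. The members and lists were chosen with earlier results of these data known. Normexp, quantile and cyclic loess used limma 3.58.1 in R 4.3.3; other steps used Python 3.11.15, tested on simulated data. Replicates are 1 array per group, which limits the precision.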

Additional observations from a re-analysis of the deposited data

How the results depend on the processing

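Srcin1 stayed lower on both treated arrays under every alternative that gave a value. All of these read the same spot, which was well above background with vehicle only, so the sign for Srcin1 could hardly change. Its bound for epoxides over vehicle (-3.30) was -2.48 with normexp, -2.76 with the value table, -2.99 with quantile normalization, -2.89 with cyclic loess, -3.07 with the trend of GC content and signal taken out and -3.01 with raw pixel medians, an alternative chosen after seeing the data. For GW9662 over vehicle (-2.76) it was -2.15 with normexp, -2.65 with cyclic loess, -3.30 with the value table and -2.50 with raw pixel medians. Csk was 0.24 with the value table and 0.33 with the trend removed, with or without rows 181 to 400, for epoxides over vehicle, 0.60 with the value table for GW9662 over vehicle, and -0.36 with the value table and 0.16 with the trend removed, with or without those rows, for epoxides over GW9662. The value table exchanges the treated arrays by construction; the cause of the other shifts was not tested. Members 2-fold apart were 0 in each comparison, and 1 at 1.5-fold for epoxides over vehicle. Without the filter on dim probes the counts were 3, 3 and 1 (Srcin1, Src and Fgr, and in the last Srcin1 alone). None of these genes was well above background on a treated array. The share of all genes without this filter is not given, so these counts are not read as changes. Without rows 181 to 400, Srcin1, Fyn and Lck gave no value, and a mean of detected probes gave none for Srcin1. Of all genes 2-fold apart in epoxides over vehicle, 9.42% were higher, against 31.0% (quantile), 23.0% (cyclic loess) and 34.7% (trend removed). No paired analysis was possible because there was 1 array per group.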
